A study of Mus musculus with 5 samples.

Results

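The oxidative phosphorylation genes described here are the subunits of the 5 respiratory complexes, together with the complex I assembly factors that share their names, in mouse caudate putamen after an experimental stroke. Members were taken by name: genes whose symbols begin Nduf followed by a, b, c, s or v, the Sdh subunits, and names beginning Uqcr, Cox4 to Cox8 or Atp5. The mitochondrially encoded subunits of complexes I, III, IV and V were added, and names ending in -ps or containing Rik were left out. The rule found 104 of the 19221 genes in the table, of which 91 are nuclear and 13 are encoded by the mitochondrial genome. By the table's own names the rule found 0 mitochondrially encoded members, because they are listed there as ND1, COX1, CYTB and so on, so they were found by gene identifier. The nuclear members comprise 82 structural subunits and 9 assembly factors (Ndufaf1 to Ndufaf8 and Atp5s). The pseudogene name Atp5l-ps1 also met the pattern and was set aside.

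RNA was sequenced from micropunches of the caudate putamen, the dorsal part of the striatum, of male C57BL/6 mice aged 9 weeks. A clot was made by photothrombosis, in which a light-activated dye, rose bengal (100 mg/kg, into the peritoneum), was followed by 2 min of 532 nm laser light at 30 mW. The light was brought by an optical fibre to 3 mm below the dura. The 4 stroke libraries, taken at 4 hours, day 1, day 3 and day 10, each pooled tissue of 6 animals. The sham library pooled punches from the opposite hemisphere, where the laser was applied before the dye, and its number of animals was not stated in the labels. All 5 libraries come from animals that received the dye, the fibre and the laser. Each group is 1 library, so no difference has a replicate check, and no test, standard deviation or p-value is given. All 4 stroke libraries are compared with the same sham library.

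Oxidative phosphorylation makes most of the ATP of a neuron. Complexes I and II pass electrons from NADH and succinate to ubiquinone, complexes III and IV pass them on to oxygen, and complex V uses the proton gradient so built to make ATP. Complexes I, III, IV and V are assembled from subunits of both genomes, complex II from nuclear subunits only, and the mitochondrial genome is transcribed as long precursors from which tRNAs, rRNAs and mRNAs are cut. Striatal medium spiny neurons are known to be sensitive to the loss of this energy supply.

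Levels are the deposited RPKM, that is reads per kilobase of gene, scaled to the library total. The difference from sham is given as a log2 fold, log2((stroke RPKM + 1) / (sham RPKM + 1)), which understates the differences of low genes. Analysed were the 12783 genes that reached 1 RPKM in any library, among them 90 nuclear and all 13 mitochondrially encoded members. The nuclear member not analysed was Cox7b2, at 0.038 to 0.402 RPKM. Cox6b2, Cox7a1 and Ndufaf4 were under 1 RPKM in sham and entered only through stroke libraries.

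The libraries held between 42261783 and 48013847 reads. Members of the nuclear genome took 1.09% to 1.56% of them, and mitochondrially encoded members took 1.47% to 4.27%. The libraries also differed in scale: by the median of ratios over genes detected in all 5, a typical gene was 0.37 higher on the log2 scale at 4 hours, 0.11 lower at day 1, and 0.14 and 0.16 higher at days 3 and 10. Differences are therefore read against the median of all genes analysed, which was 0.28, -0.02, 0.12 and 0.07 in the 4 stroke libraries in order of time.

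Over all or part of their length, reads of several members cannot be told apart from those of a near-identical copy, which bears on the levels that follow. mt-Co1, mt-Co2, mt-Atp6, mt-Co3, mt-Nd3, mt-Nd4l and mt-Nd4 have copies at least 99% identical over at least 200 bases on chromosome 1 of GRCm38, the mouse genome build. The table lists all 7 copies, at 0.62 to 1.24 times the RPKM of the member. The match covers 483 of the 1545 bases of mt-Co1, 876 of the 1378 of mt-Nd4 and nearly all of each of the others. The first 33 bases of mt-Nd3 (chrM:9459-9491, plus strand, GRCm38) and of its copy Gm28438 show how little separates them. The capital is the substitution T3C, counted from the first base of the gene with the base of mt-Nd3 first, and it is the only mismatch over the 345 aligned bases.

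mt-Nd3: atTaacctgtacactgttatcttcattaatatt

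Gm28438: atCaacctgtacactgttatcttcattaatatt

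In sham, mt-Nd3 stood at 1237 RPKM and Gm28438 at 1234 RPKM, and at 4 hours the values were 3701 and 3694. The copies of mt-Co2, mt-Co3 and mt-Nd4l likewise lay within 1% of their members in every library. For the remaining 6 mitochondrially encoded members (mt-Nd1, mt-Nd2, mt-Atp8, mt-Nd5, mt-Nd6 and mt-Cytb) no such copy was found among annotated transcripts. Copies that are not annotated were not searched for. mt-Atp8, 204 bases long, lies between mt-Co2 and mt-Atp6, whose copies lie close together on chromosome 1. Among nuclear members, 11 have such a copy, among them Atp5g1, Atp5g2, Cox5b, Cox7c and Ndufs5.

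Nuclear members are known to share promoter sites for a few activators, and 300 bases of promoter (250 before to 50 after the start, RefSeq, build GRCm38.p6) were found for 76 of the 91. Both strands were searched for GCGCANGCG (the factor NRF1), ACTTCCGG (ETS factors such as GABPA), AANATGGC (YY1) and CAAGGTCA (the receptor ERRα). The NRF1 letters were in 28.9% of the members' windows and in 7.03% of those of all 27025 genes with a promoter. The YY1 letters were in 25% and 6.96%, those of ETS in 6.58% and 4.31%, and those of ERRα in 5.26% and 1.76%. A window with any of these motifs was found for 42 members, 55.3%, against 17.9% of all genes. The windows of 3 members are printed, with matches in capitals: Sdha, the nuclear member lowest against sham at days 1 and 3, and Ndufa6 and Cox7b, past 2-fold higher at day 1. They are at chr13:74350191-74350490 (minus strand), chr15:82354242-82354541 (minus strand) and chrX:106015450-106015749 (plus strand).

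Sdha: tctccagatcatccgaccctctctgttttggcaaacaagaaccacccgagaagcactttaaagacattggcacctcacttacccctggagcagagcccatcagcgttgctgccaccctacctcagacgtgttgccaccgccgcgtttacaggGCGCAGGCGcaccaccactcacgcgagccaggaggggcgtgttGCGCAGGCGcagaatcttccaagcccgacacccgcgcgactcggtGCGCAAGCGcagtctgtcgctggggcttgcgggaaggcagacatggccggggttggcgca

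Ndufa6: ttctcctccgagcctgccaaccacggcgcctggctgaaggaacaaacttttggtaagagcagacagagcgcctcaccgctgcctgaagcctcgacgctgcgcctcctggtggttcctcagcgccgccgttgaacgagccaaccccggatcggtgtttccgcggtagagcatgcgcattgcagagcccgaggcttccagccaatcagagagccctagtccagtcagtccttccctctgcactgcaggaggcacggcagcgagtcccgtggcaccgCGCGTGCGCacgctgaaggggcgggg

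Cox7b: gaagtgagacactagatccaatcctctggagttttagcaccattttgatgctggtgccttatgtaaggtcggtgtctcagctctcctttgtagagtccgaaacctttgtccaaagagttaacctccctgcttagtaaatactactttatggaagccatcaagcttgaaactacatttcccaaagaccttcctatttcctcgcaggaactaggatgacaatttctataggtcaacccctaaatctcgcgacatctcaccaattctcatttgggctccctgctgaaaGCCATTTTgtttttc

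The Sdha window held 3 NRF1 matches, that of Ndufa6 1 NRF1 match on the other strand, and that of Cox7b 1 YY1 match on the other strand. Sdha, low at day 1, and Ndufa6, high at day 1, thus both carry NRF1 letters. Cox7c, Ndufc2 and Ndufa4, also past 2-fold at day 1, had none of the motifs in this window. Whether the motifs go with the folds over all members was not tested. A match is a description of the sequence, not of binding.

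Nuclear and mitochondrially encoded members followed different courses. The nuclear median log2 fold was 0.36 (4 hours), 0.48 (day 1), 0.41 (day 3) and -0.02 (day 10). That of the mitochondrially encoded members was 0.58, 0.34, 0.00 and -0.56 at the same times. Nuclear members thus stood farthest above the median of all genes at day 1, by 0.50, and by 0.29 at day 3. They were also set against other protein-coding genes in bins split at 1000, 2000 and 4000 exon bases. From the shortest bin to the longest, the differences were 0.24, 0.21, 0.30 and 0.42 at day 1. At day 3 they were -0.11, 0.01, 0.04 and 0.52, so only members from 4000 exon bases up stood clearly above genes of like length. At 4 hours the nuclear median was 0.07 above that of all genes, a difference that was -0.01 with median-of-ratios scaling before the pseudocount and 0.20 with no filter on low genes. The mitochondrially encoded median minus the nuclear median was 0.22, -0.14, -0.40 and -0.54 at the 4 times. Without the members that have a near-identical copy, the 4-hour difference turned to -0.26, while those at days 1, 3 and 10 kept their sign at -0.21, -0.34 and -0.51. In pooled tissue, fewer cells of a type and less RNA per cell cannot be told apart.

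**Figure D1:**
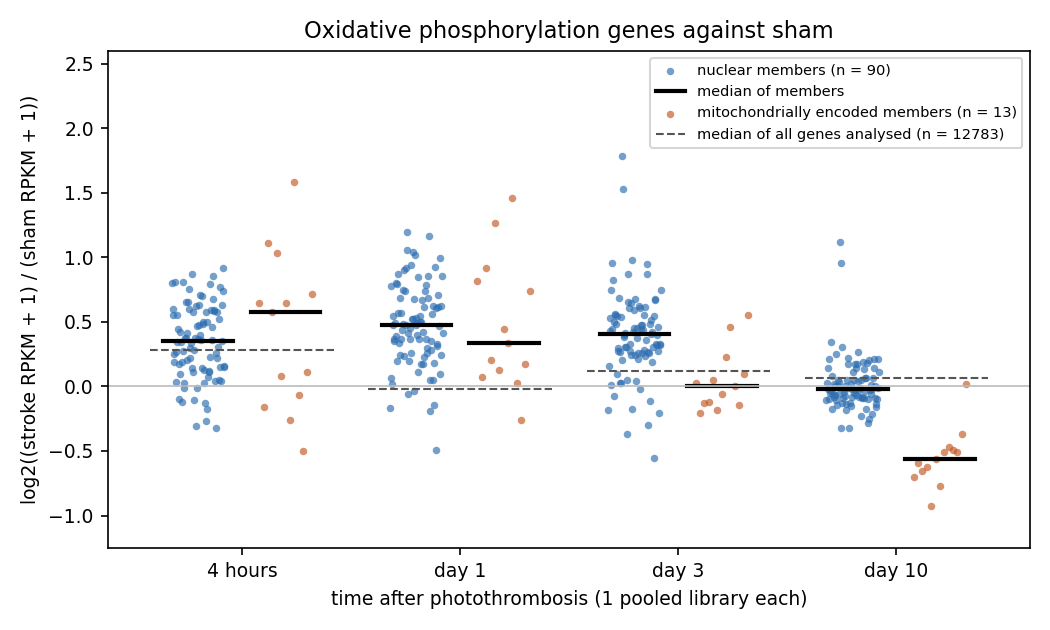
Log2 fold against sham (vertical axis) of each analysed member at the 4 times after photothrombosis (horizontal axis), with each dot a gene, black bars the medians of the members and dashed lines the median of all genes analysed. Of the 90 nuclear members, 84 and 75 lie above the dashed line at days 1 and 3. They lie around 0 at day 10, where 12 of the 13 mitochondrially encoded members lie below 0. The dashed line takes no account of exon length.

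At days 1 and 3 most nuclear members were modestly higher than in sham, and few were far higher. Of the 90, in order of time, 80, 84, 81 and 40 were above 0. Above the median of all genes were 51, 84, 75 and 23. At 4 hours 0 nuclear members reached 2-fold higher, where 2.2% of all genes did, and 22 reached 1.5-fold higher, where 18.5% did. At day 1 5 were at least 2-fold higher (3.33% of all genes) and 31 at least 1.5-fold higher (11.1%). At day 3 the counts were 2 (9.04%) and 21 (22.2%), and at day 10 they were 1 (4.2%) and 2 (10.5%). On the log2(RPKM + 1) scale used for all these counts, no nuclear member was 1.5-fold lower at any time, where 3.04%, 8.48%, 5.26% and 0.759% of all genes were. The shares of all genes at least 2-fold lower were 1.09%, 1.35%, 0.618% and 0.172%. The 31 members at day 1 are a larger share than the background, those at 4 hours and day 3 are near it, and those at day 10 are below it. The highest library of a nuclear member was 4 hours for 25, day 1 for 37 and day 3 for 29, and never sham or day 10. The lowest was sham for 37 and day 10 for 39.

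Complex I, which oxidises NADH, has the most members, and its nuclear median over 36 subunits was 0.35, 0.47, 0.43 and -0.03 at the 4 times. Ndufc2, an accessory subunit of its membrane arm, was at 130.4 RPKM in sham, 197 (4 hours), 294 (day 1), 239 (day 3) and 137 (day 10). It was highest at day 1, 2.25 times sham (95% interval 2.14 to 2.37, exact binomial on read pairs, counting error only), and back near sham at day 10. Ndufa6, another accessory subunit, went from 118 RPKM in sham to 164, 241, 159 and 120.2, with a log2 fold of 1.02 at day 1. Ndufa10 had the highest log2 fold of the complex at 4 hours, 0.87, and Ndufc1 at day 3, 0.94. Ndufs8, an iron-sulfur subunit, had the lowest at 4 hours, at -0.32 (182 RPKM in sham and 146 at 4 hours). Ndufs4, needed for the stability of complex I, was at 8.48 RPKM in sham, 16.1 (4 hours), 11.1 (day 1), 7.77 (day 3) and 6.77 (day 10), and had the lowest fold of the complex at day 10, -0.29.

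Core subunits of complex I, which carry its electron path, were unequal at day 1. Ndufv2 was at 40.0 RPKM in sham and 77.0 at day 1, a log2 fold of 0.93, while Ndufs7 was at 0.05 and Ndufs1 and Ndufv1 were below 0. Ndufs1, the largest iron-sulfur subunit, was at 2.45 RPKM in sham, 3.75 (4 hours), 2.02 (day 1), 1.803 (day 3) and 2.05 (day 10). It was above sham at 4 hours only, and was the lowest nuclear member of the complex at days 1 and 3 (log2 folds -0.19 and -0.30). Ndufv1, which holds the NADH binding site, had a log2 fold of -0.14 at day 1. Ndufs1 shares exon bases with Eef1b2 and Ino80dos on the opposite strand, whose reads cannot be separated from its own without strand.

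Complex II, succinate dehydrogenase, is also an enzyme of the tricarboxylic acid cycle and has 4 nuclear subunits. Sdha, its catalytic flavoprotein, was at 16.3 RPKM in sham, 20.4 (4 hours), 11.3 (day 1), 10.8 (day 3) and 14.0 (day 10). It was lower than sham from day 1 on, at 0.692 times sham at day 1 (0.640 to 0.749) and 0.660 times at day 3 (0.608 to 0.717). Its partners went the other way. Sdhb, the iron-sulfur subunit, was at 68.6, 71.2, 85.5, 109.8 and 72.0 RPKM in the 5 libraries, and the membrane anchor Sdhc at 17.4, 25.4, 22.0, 28.4 and 19.3. Sdhd, the other anchor, was highest at 4 hours, at 57.5 RPKM against 33.3 in sham. At day 3 the subunits of this 1 complex spanned log2 folds from -0.56 (Sdha) to 0.68 (Sdhc).

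Complex III, which passes electrons to cytochrome c, had nuclear medians of 0.26, 0.55, 0.33 and -0.05 over 8 subunits. Uqcrfs1, the Rieske iron-sulfur protein, was at 43.0 RPKM in sham, 82.2 (4 hours), 66.8 (day 1), 54.2 (day 3) and 50.0 (day 10). Its 4-hour log2 fold of 0.92 was the highest among nuclear members at that time. Uqcrb, known as the ubiquinone-binding protein, had a log2 fold of 0.99 at day 1, just under the 2-fold limit. The core proteins differed by time. Uqcrc1 had log2 folds of 0.35, 0.10, 0.46 and -0.16 at the 4 times, and was the lowest nuclear member of the complex at days 1 and 10. Uqcrc2 had 0.74, 0.24, -0.21 and -0.09, and was the lowest at day 3.

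Complex IV, cytochrome c oxidase, had nuclear medians of 0.34, 0.52, 0.30 and -0.03 over 18 members. Cox7c was at 140.2 RPKM in sham, 237 (4 hours), 323 (day 1), 187 (day 3) and 136 (day 10). Its day 1 log2 fold of 1.20 was the highest of the nuclear members, at 2.30 times sham (2.22 to 2.40). A nuclear copy of Cox7c, Gm10012, lay at 21.7 to 42.01 RPKM and was also highest at day 1. Cox7b was at 35.5, 54.2, 74.8, 44.0 and 33.3 RPKM in the 5 libraries. Ndufa4, first assigned to complex I and now counted with complex IV, was at 143, 186, 296, 169.7 and 114 RPKM. Its log2 fold was 1.04 at day 1 and -0.33 at day 10, the lowest of the nuclear members there. Cox4i1, the largest nuclear subunit and among the most abundant, differed little between libraries, at 515 RPKM in sham and 475, 609.9, 623 and 479 after stroke. Cox5a was at 31.8, 56.4, 47.5, 51.6 and 28.7 RPKM, highest at 4 hours.

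Complex V, the ATP synthase, had nuclear medians of 0.34, 0.48, 0.50 and -0.02 over 15 subunits. Atp5a1, the alpha subunit of its catalytic head, was at 109 RPKM in sham, 191 (4 hours), 97.1 (day 1), 95.8 (day 3) and 101 (day 10). It stood above sham at 4 hours and slightly below it afterwards. Atp5b, the catalytic beta subunit, was at 170.2, 259, 178, 190.2 and 174 RPKM, also highest at 4 hours. Atp5l, of the membrane part, had the highest log2 fold of the complex at day 1, 0.87. Atp5g2, which encodes the c subunit of the rotor ring as do Atp5g1 and Atp5g3, had the highest at day 3, 0.96, and at day 10, 0.34.

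Across complexes, a selection of 11 catalytic or central subunits, called core here, was set beside the other 70 structural members analysed. The selection is not complete, since it leaves Ndufs3, Ndufs7, Ndufs8, Ndufv2 and Uqcrc2 among the others, and it holds Cox4i1 and Cox5a, which are not catalytic. The core median was 0.07 at day 1 and the median of the others 0.49, a difference of -0.42, whereas at 4 hours the medians were 0.36 and 0.32. With those 5 moved into the core and Cox4i1 and Cox5a moved out, a choice made after seeing the data, the day 1 medians were 0.08 over 14 subunits and 0.52 over 67. Of the 11 core subunits, Sdha, Ndufs1, Atp5a1 and Ndufv1 were below 0 at day 1, and Uqcrfs1 (0.62) and Cox5a (0.57) were the highest. The core genes are also longer, with a median of 2634 exon bases (1363 to 8086) against 1423 (360 to 6883), and length moved with the fold in all protein-coding genes at day 1. Nonmember protein-coding genes had medians of 0.31 below 1000 exon bases, 0.29 from 1000 to 2000, 0.07 from 2000 to 4000 and -0.16 from 4000 up. Nuclear members in the same bins had 0.55, 0.50, 0.37 and 0.26, above the others in each bin. At day 3 they differed from the others by -0.11, 0.01, 0.04 and 0.52. The part of length in the core difference was not tested.

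**Figure D2:**
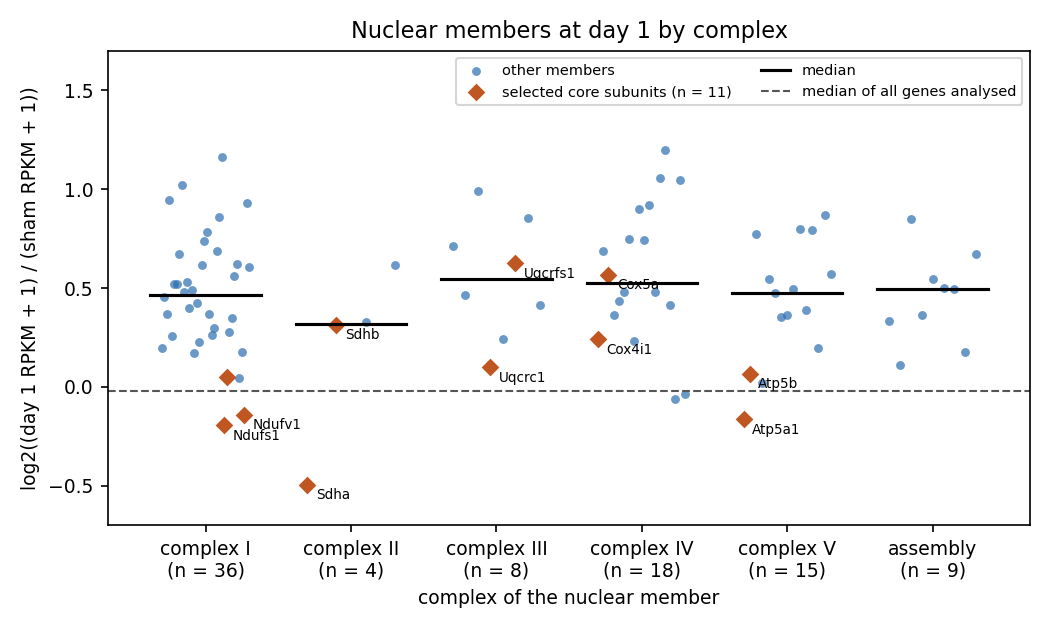
Log2 fold at day 1 against sham (vertical axis) of each analysed nuclear member, by complex (horizontal axis), with the selected core subunits as diamonds, of which those named in the text are labelled, bars for the median of each group and a dashed line for the median of all genes analysed. The group medians lie between 0.32 (complex II) and 0.55 (complex III), and Sdha, at -0.49, is the lowest point.

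The 9 assembly factors, of which the Ndufaf proteins help to build complex I without being part of it, had medians of 0.40, 0.50, 0.26 and 0.05. Ndufaf2 was the highest at day 1 (0.85) and Ndufaf1 the lowest (0.11). Their course thus ran beside that of the structural subunits at 4 hours and day 1.

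Several complex IV subunits exist as isoforms, and the minor isoforms Cox6b2, Cox7a1 and Ndufa4l2 had the largest folds of the nuclear members at day 3, while Cox8b (-0.37), Cox6a2 (0.03) and Cox4i2 (0.30) did not share them. Cox6b2 and Cox7a1 passed the floor through the stroke libraries in which they are high. Cox6b2, an isoform best known from testis, was at 0.844 RPKM in sham, 1.91 (4 hours), 1.17 (day 1), 5.34 (day 3) and 3.01 (day 10). It was higher than sham beyond counting error at 4 hours, at 2.26 times (1.34 to 4.00), at day 3, at 6.33 times (3.96 to 10.6), and at day 10, at 3.56 times (2.18 to 6.07), with 42 reads in sham and 250 at day 3. Cox7a1, the heart and muscle isoform, was at 0.999 RPKM in sham, 1.302 (4 hours), 2.34 (day 1), 4.78 (day 3) and 2.88 (day 10). Its ratio to sham was 4.78 at day 3 (2.53 to 9.82), from 24 reads in sham. These are the 2 nuclear members past 2-fold at day 3. The next, Ndufa4l2, was just inside 2-fold on the log2(RPKM + 1) scale at 0.98. Ndufa4l2, a hypoxia-regulated relative of Ndufa4, was at 1.22, 0.795, 1.16, 3.37 and 1.03 RPKM in the 5 libraries, 2.76 times sham at day 3 (1.79 to 4.36). It shares exon bases with Shmt2 on the opposite strand.

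**Figure D3:**
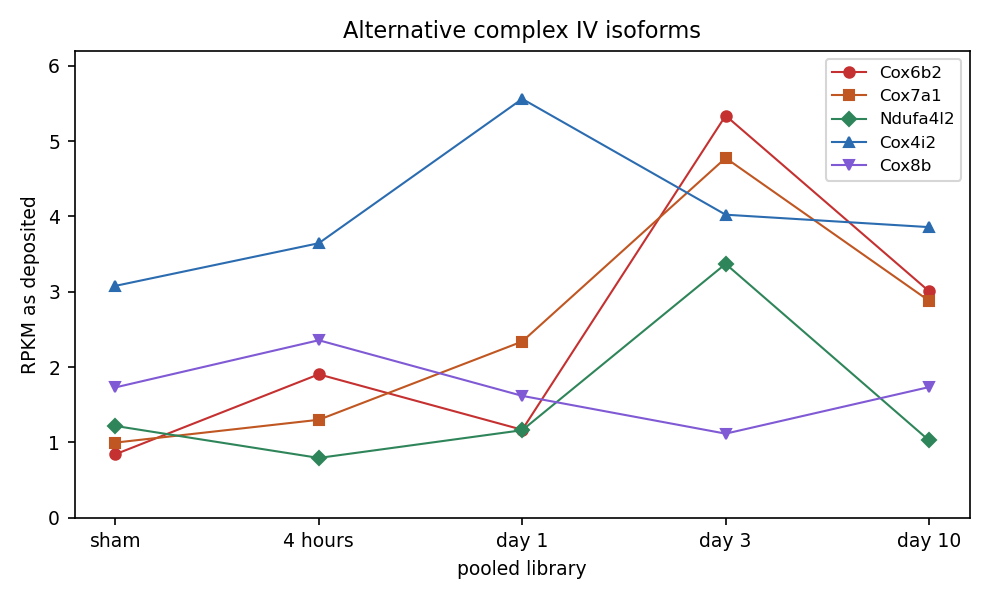
RPKM as deposited (vertical axis) of 5 low complex IV isoforms in the sham and the 4 stroke libraries (horizontal axis), with points joined by gene. Cox6b2, Cox7a1 and Ndufa4l2 peak at day 3, at 5.34, 4.78 and 3.37 RPKM, Cox4i2 at day 1, and Cox8b is lowest at day 3.

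Cox4i2, the oxygen-regulated isoform of Cox4i1, peaked earlier. It was at 3.08 RPKM in sham, 3.65 (4 hours), 5.56 (day 1), 4.02 (day 3) and 3.86 (day 10), which at day 1 was 1.81 times sham (1.28 to 2.54). Cox8b, a muscle isoform, was at 1.73, 2.36, 1.62, 1.12 and 1.74 RPKM, with intervals of its ratio that include 1 at every time. Each of these isoforms remained a small part of its set. Cox6b2 made up 0.376% of the summed Cox6b RPKM in sham and 1.62% at day 3, Cox7a1 0.558% and 2.00% of the Cox7a set, and Ndufa4l2 0.845% and 1.95% of its pair with Ndufa4. The Cox7a set counts Cox7a2l, 55.9% of it in sham, as well as Cox7a2, so the share of Cox7a1 beside Cox7a2 alone is larger. Cox6a2 stayed between 2.095% and 2.32% of the Cox6a set. The c subunit genes of complex V shifted more in share, with Atp5g2 at 39.8% of the set in sham, 32.5% at 4 hours and 46.4% at day 10. Atp5g2 has a processed copy, Gm10175, identical over 645 bases and listed at 257 RPKM in sham, so its share is uncertain.

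The mitochondrially encoded mRNAs diverged from each other at 4 hours and day 1 and lay closer together at day 10. Of these 13 genes, 3 reached 2-fold higher at 4 hours (1 with median-of-ratios scaling), 2 at day 1 and 0 later, where 2.2% and 3.33% of all genes did at the first times. At least 1.5-fold higher were 6 and 5 at the first times (18.5% and 11.1% of all genes) and 0 at the later ones, and at least 1.5-fold lower were 6 at day 10 and 0 before. With 6 of 13 past 1.5-fold lower at day 10, their share was above the 0.759% of all genes. All 3 that passed 2-fold at 4 hours, mt-Nd3, mt-Co1 and mt-Co3, have near-identical copies.

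Complex IV has the most abundant of them. mt-Co1, which carries the oxygen-reducing centre, was at 6537 RPKM in sham, 14096.5 (4 hours), 12315 (day 1), 5979 (day 3) and 4144 (day 10). mt-Co3, a structural subunit, was at 6267, 12858, 15059.9, 6498 and 3303 RPKM. Both were about as high at day 3 as in sham and lower than sham at day 10, mt-Co3 at 0.527 times (0.522 to 0.532). mt-Co2, which accepts electrons from cytochrome c, was at 2581, 3849, 2976, 2373 and 1671 RPKM. It went in the same direction with smaller differences, at a log2 fold of 0.58 at 4 hours and -0.63 at day 10.

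The 7 complex I genes were the most uneven. mt-Nd3 was at 1237 RPKM in sham, 3701 (4 hours), 3408 (day 1), 1704 (day 3) and 893 (day 10). At 2.99 times sham (2.92 to 3.06) it was the highest of the 13 at 4 hours, and at day 1 it was the highest again. Its map neighbour mt-Nd4l was the lowest at both times, at 547 RPKM in sham and 388 and 458 at 4 hours and day 1, then 495 and 385. mt-Nd1 was at 1126, 1764, 1536, 1082 and 660.3 RPKM, higher at the first times and lower at day 10. mt-Nd2 was at 605, 506, 766, 708 and 426 RPKM, lower than sham at 4 hours and higher at days 1 and 3. mt-Nd4, which shares bases with mt-Nd4l, was at 602, 574, 611, 602 and 427 RPKM, and mt-Nd5 at 423, 456, 476, 452 and 328, so both were near sham until day 3.

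mt-Nd6 is the member transcribed from the other strand of the mitochondrial genome. It was at 343 RPKM in sham, 565 (4 hours), 575 (day 1), 503 (day 3) and 348 (day 10). It is the member with a log2 fold above 0 at day 10, at 0.02, where the other 12 lay between -0.92 and -0.37. Its ratio to sham there was 1.01 (0.971 to 1.06). It also had the highest fold of the 13 at day 3, 0.55. Without strand in the counting, transcripts opposite to a gene would be counted in it, and mt-Nd6 shares a few end bases with mt-Nd5.

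mt-Cytb, the cytochrome b of complex III, was at 1342 RPKM in sham, 1422 (4 hours), 1468 (day 1), 1183 (day 3) and 911 (day 10). In complex V, mt-Atp6, the proton channel subunit, was at 2035, 3182, 3579.9, 2068 and 1249 RPKM. mt-Atp8, whose reading frame overlaps that of mt-Atp6, was at 1335, 1193, 1407, 1157 and 884 RPKM. These neighbours on 1 transcript thus differed, with log2 folds of 0.64 and -0.16 at 4 hours. Day 10 was the lowest library for 12 of the 13 genes, and sham for mt-Nd6.

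**Figure D4:**
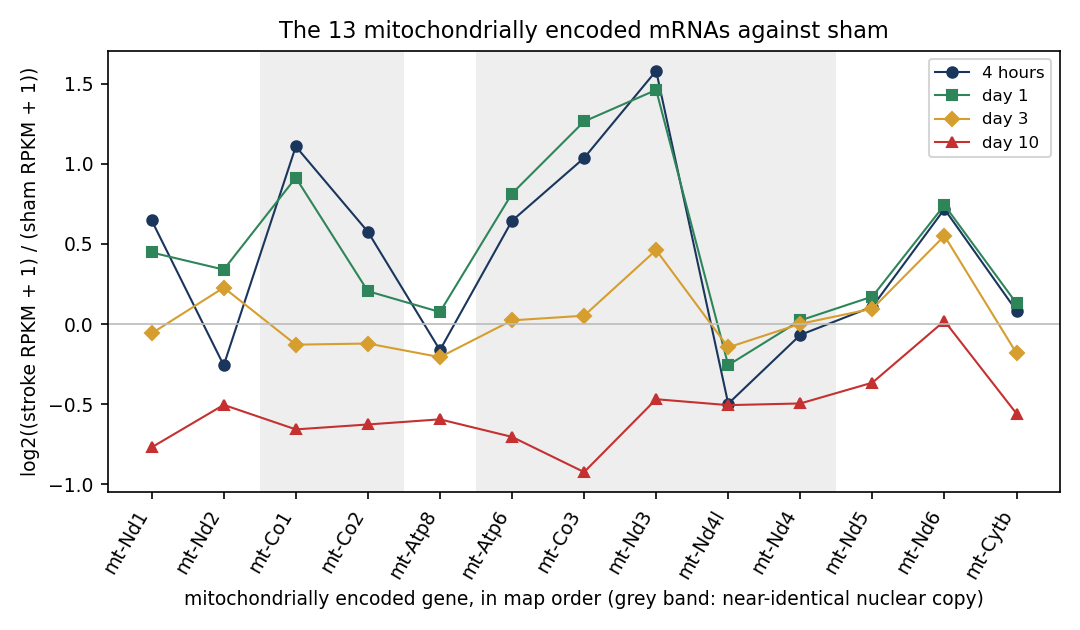
Log2 fold against sham (vertical axis) of the 13 mitochondrially encoded mRNAs in map order (horizontal axis), 1 line for each stroke library, with grey bands on the 7 genes that have a near-identical nuclear copy. The lines of 4 hours and day 1 range from -0.50 (mt-Nd4l) to 1.58 (mt-Nd3), and that of day 10 lies between -0.92 and -0.37 except at mt-Nd6.

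Summed over members, the mitochondrially encoded mRNAs were at 24980 RPKM in sham, 44553 (4 hours), 44635 (day 1), 24805 (day 3) and 15629 (day 10). The nuclear sums were 7860.4, 9366, 11399, 10363 and 7786 RPKM. The ratio of the sums was 3.18 in sham, 4.76 (4 hours), 3.92 (day 1), 2.39 (day 3) and 2.01 (day 10). It was thus above sham at 4 hours and day 1 and below it later. mt-Co1 and mt-Co3 alone held 51.3% of the mitochondrially encoded sum in sham and 60.5% at 4 hours. Without the members that have copies the ratio was 0.765 in sham, and 0.745, 0.648, 0.575 and 0.534 after stroke. It was thus above sham early only with those members counted, among them mt-Co1 and mt-Co3. Whether reads shared with a copy play a part was not tested.

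The other genes of mitochondria were described from lists. Of the 80 mitochondrial ribosomal protein genes, which translate the 13 mRNAs, 13, 26, 27 and 0 were at least 1.5-fold higher at the 4 times, where 18.5%, 11.1%, 22.2% and 10.5% of all genes were, and 0 were 1.5-fold lower. Their medians, 0.39, 0.43, 0.50 and 0.07, ran close to those of the nuclear members. Mrps6 stood highest, at 17.4 RPKM in sham and 85.1 at day 3. The 18 outer membrane and import genes had medians of 0.47, 0.51, 0.39 and 0.06. The 17 tricarboxylic acid cycle genes had 0.56 at 4 hours but 0.05, 0.09 and -0.02 later, with 8 of 17 at least 1.5-fold higher at 4 hours (18.5% of all genes) and 0 at day 1 (11.1%). Pdha1, of the pyruvate dehydrogenase that feeds the cycle, was lower at day 1, at 3.61 RPKM against 6.04 in sham, as Sdha was.

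Factors that build or drive the system differed by kind. The 40 analysed genes for complex assembly and cytochrome c had medians of 0.42, 0.25, 0.26 and 0.00. Cycs, cytochrome c itself, was at 19.6, 32.3, 33.0, 23.4 and 17.2 RPKM in the 5 libraries, and Cyc1, the cytochrome c1 of complex III, at 79.8, 92.6, 86.8, 106 and 81.8. For 16 genes of mitochondrial transcription and RNA handling the medians were 0.34, 0.06, 0.12 and -0.04, and 0 passed 2-fold. Polrmt, the mitochondrial RNA polymerase, was at 3.43 RPKM in sham, 3.61 (4 hours), 2.50 (day 1), 4.11 (day 3) and 3.23 (day 10). Tfam, which packs and helps to transcribe mitochondrial DNA, was at 0.682 RPKM in sham and 1.58 at 4 hours, and between 0.640 and 0.835 later. It passed the floor of 1 RPKM only through the 4-hour library, where it is high. The 6 analysed transcriptional regulators of the system had medians of 0.08, -0.26, -0.21 and 0.01. Ppargc1a, the best known of the 9 listed regulators, was under 1 RPKM throughout, at 0.446 in sham and 0.240 at day 3. It was therefore not among the 6 analysed. None of the 6 analysed regulators passed 1.5-fold on the log2(RPKM + 1) scale. At days 1 and 3 their median lay below that of the genes they are known to act on. Of the 6, 1 was above 0 at day 1 and 2 at day 3, with Pprc1 the highest (0.21 and 0.25). Exon length was not allowed for in this comparison.

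Transcripts cut from the same mitochondrial precursors had other courses. The 12S rRNA mt-Rnr1 was at 10716 RPKM in sham, 7264 (4 hours), 9157 (day 1), 12046 (day 3) and 8545 (day 10). It was lower than sham at 4 hours, when mt-Co1 was highest. The 16S rRNA mt-Rnr2 was at 3721, 3568, 5539, 4532 and 2823 RPKM. Of the 22 tRNAs and these rRNAs, 10 of 24 reached 2-fold higher at 4 hours (2.2% of all genes) and 2 reached 2-fold lower (1.09%), with a median of 0.68. At days 1, 3 and 10, 12, 10 and 0 were 2-fold higher (3.33%, 9.04% and 4.2% of all genes). Those 2-fold lower were 1, 0 and 1 (1.35%, 0.618% and 0.172%). The medians were 1.09, 0.77 and -0.14. tRNAs are short, and the values for them depend on how fragments were selected, which the labels do not state.

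Cell type markers moved beside these genes. The medium spiny neuron list, 9 of 9 markers detected, summed to 1806 RPKM in sham, 2319 (4 hours), 901 (day 1), 1380.2 (day 3) and 1543 (day 10). General neuron markers (8 of 8) summed to 169.7, 259, 148, 130.03 and 143 RPKM, and the microglia and macrophage list (10 of 10) to 374, 283, 469, 2943 and 3302. The nuclear members' sum thus stood above sham at days 1 and 3, where both neuronal sums were below it, and near sham at day 10, where the microglia and macrophage sum was highest. Oligodendrocyte markers (6 of 6) summed to 890.3, 1481, 1349.98, 739.8 and 914 RPKM and astrocyte markers (7 of 7) to 202, 135, 353, 602 and 339.8. Within the astrocyte list Gfap had the highest log2 fold at days 1 and 3, at 1.41 and 2.31. Slc1a2 had the lowest, at -0.86 and -0.98, and the list's median was -0.18 and 0.11, so its sum does not stand for all 7. The oligodendrocyte sum, like that of the mitochondrially encoded members, was above sham at 4 hours and day 1. Choroid plexus and ependyma markers summed to 81.9 RPKM in sham, 743 (4 hours), 308 (day 1), 26.3 (day 3) and 7.12 (day 10). Ttr made up most of that sum up to day 3, at 77.4, 729, 303, 19.6 and 0.205 RPKM, while Foxj1 of the same list was at 3.23, 4.83, 2.24, 6.18 and 6.47. The neutrophil list, 4 of whose 7 genes are in the table, reached 153 RPKM at day 1 against 11.3 in sham, and dividing-cell genes 32.1 at day 3 against 1.02. Of the markers in the table, 1 neutrophil gene was listed at 0 at 4 hours and no other was at 0 in any library. The part of these cells in the members' differences was not tested.

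**Figure D5:**
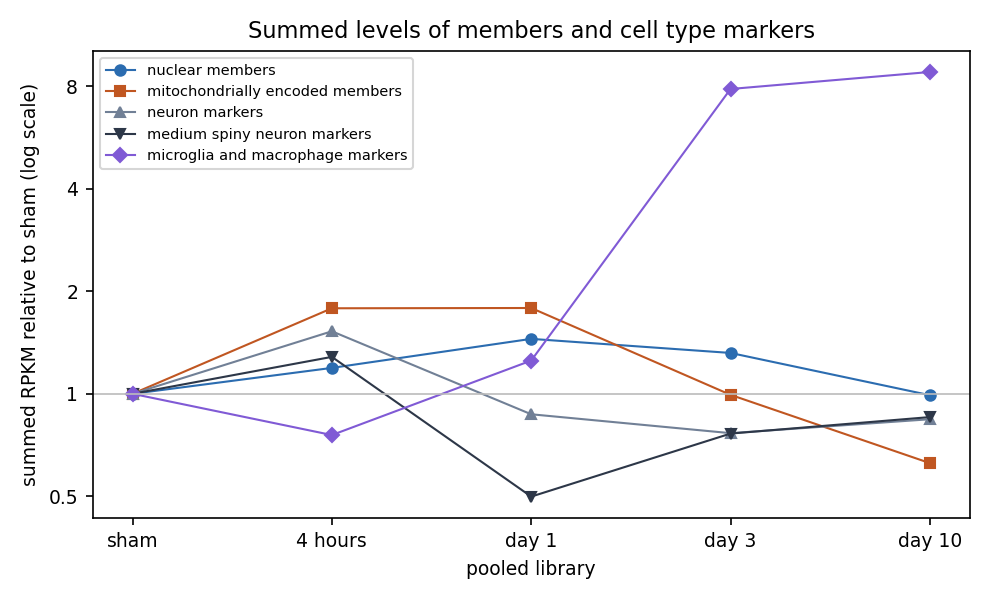
Summed RPKM relative to sham (vertical axis, log scale) of the nuclear members, the mitochondrially encoded members and 3 cell type marker lists in the 5 pooled libraries (horizontal axis). Nuclear members peak at day 1, where the medium spiny neuron markers are lowest, and the microglia and macrophage markers stand above all others at days 3 and 10.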

How the data were processed

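Members and lists were chosen with earlier results of these data known. Per the submitters' processing notes, Trimmomatic 0.36, HISAT2 2.1.0, StringTie 1.3.4d and the build GRCm38 were used. Their settings, the annotation and any use of strand are not given in the sources used here. Deposited by the authors is 1 table, with RPKM per gene and library per the file headers. Log2 folds and GFOLD values (log2 folds shrunk towards 0, setting 0.01, version not stated) were also deposited by the authors, and served only as alternatives.

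Of 19221 identifiers, 19158 were found in GENCODE mouse release 21. Reads were recovered as RPKM times exon length; among values under 5000 reads, 90.4% to 90.5% were whole (tolerance 0.02). Intervals use these reads in pairs at 95% and cover counting error only. Folds used a pseudocount of 1 RPKM and a floor of 1 RPKM in at least 1 library. Python 3.11.15, pandas 2.3.3, numpy 2.4.6 and scipy 1.17.1 were used, and the scripts were tested on simulated data. 32 members share exon bases with a gene on the opposite strand.

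Genes were named if mitochondrially encoded, past 2-fold, core, of an isoform set, or the highest or lowest nuclear member of a complex at a time; other genes named were chosen after their values were seen. Alternatives changed the pseudocount, filter, scaling, member set, size limit and fold source. The values of 1 core subunit are not reported here.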

Additional observations from a re-analysis of the deposited data

How the results depend on the processing

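No paired analysis was possible because each group is 1 library, and leaving out a library removes its comparison. The alternatives without members that have a near-identical copy and with a wider core set were chosen after seeing the data.

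The nuclear median log2 fold at 4 hours, day 1, day 3 and day 10 became 0.0026, 0.58, 0.27 and -0.17 with median-of-ratios scaling and 0.013, 0.58, 0.27 and -0.14 with the trimmed mean of M values. Without mitochondrial, predicted and small RNA genes it was 0.17 at 4 hours, 0.26 at day 3 and -0.12 at day 10. The mitochondrially encoded median was -0.71 at day 10 with median-of-ratios scaling and -0.16 at day 3 without those genes. Complex medians changed sign with scaling, to -0.021 (complex I), -0.11 (III) and -0.030 (V) at 4 hours and -0.045 (II) at day 10 by median of ratios, and to -0.0086, -0.098, -0.018 and -0.012 by the trimmed mean. Nuclear minus all genes was 0.20 at 4 hours and 0.35 at day 3 with no filter, 0.19 at day 3 with a floor of 5 RPKM, -0.13 at day 10 with median-of-ratios scaling, and 0.41 at day 1 and 0 at day 10 with the authors' deposited GFOLD values.

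Nuclear members at least 2-fold higher at day 1, 5 in the report, were 8 with a pseudocount of 0.1 or the authors' deposited log2 fold, 10 and 9 with the scalings and 3 with GFOLD. They were 1 at 4 hours and 2 at day 10 with a pseudocount of 0.1 or the deposited log2 fold, and 1 at day 3 with the floor of 5 RPKM. At 1.5-fold they were 22, 31, 21 and 2, and mitochondrially encoded members 6 and 5 higher and 6 lower. With either scaling, or without mitochondrial, predicted and small RNA genes, 1 mitochondrially encoded member was 2-fold higher at 4 hours and 1 lower at day 10. Complexes with a nuclear median above that of all genes at 4 hours, 4 in the report's setting, were 1 with either scaling or the deposited log2 fold and 2 with a pseudocount of 0.1, and 0 at day 10 with median of ratios. Of 9 mitochondrial lists, 1 was above all genes at day 10; this became 3 with no filter, 2 with the floor of 5 RPKM and 0 with a pseudocount of 0.1, the scalings or deposited folds, and with GFOLD 5 were at day 1.

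Without members that have a copy, mitochondrially encoded members 2-fold higher were 0 at 4 hours and day 1, the median difference between genomes at 4 hours was -0.26, and the ratio of sums was 0.765, 0.745, 0.648, 0.575 and 0.534. The core difference at day 1 lay between -0.45 and -0.39 in all settings run. The cause of these shifts was not tested. Low isoforms rest on few reads (24 for Cox7a1 in sham), which limits their ratios.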

Other observations

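Genes at the edge of the pathway had courses of their own. Bnip3, a mitophagy receptor known to respond to low oxygen, was at 15.6 RPKM in sham, then 33.7, 30.9, 22.4 and 14.7 at the successive times, and was the 1 gene of 11 analysed in the mitophagy and fission list to pass 2-fold at 4 hours. Ucp2, an inner membrane carrier abundant in macrophages, was at 5.18 RPKM in sham, 6.81 and 5.86 early, and 48.96 and 23.9 at days 3 and 10. Its log2 folds of 3.01 and 2.01 belong to the libraries where the microglia and macrophage markers summed to 2943 and 3302 RPKM, and the part of those cells was not tested. Vdac1, the main channel of the outer membrane, was at 106 RPKM in sham and 213 at 4 hours. Timm8b, a small import chaperone, was at 158 RPKM in sham and 323 at day 1, and at 130.2 at day 10. Among mitochondrial tRNAs, mt-Td went from 28.0 RPKM in sham to 346 at 4 hours, and mt-Tq from 366 to 80.6, while at day 3 mt-Tq was at 412.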
